A study of Homo sapiens with 6 samples.

Results

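The 48 genes described here act in mitosis: the G2/M cyclins and kinases, the chromosomal passengers and the spindle checkpoint, the kinetochore, the spindle motors, and cytokinesis. They were taken by symbol, through the Ensembl identifiers of GENCODE 29, from the 58735 genes counted in each library. The rule itself uses no measured value, but the genes were chosen with earlier results of these data known. RNA was sequenced from cells of Jurkat, an established line of human T cell leukaemia, that had received a lentiviral vector. In the knockdown group (shSATB1, 3 libraries) the vector carried a short hairpin RNA against SATB1, which encodes a chromatin-organising protein of T cells, and in the control group (shCtrl, 3 libraries) a control hairpin. Both groups were infected, and the design text is read, without certainty, as 1 vector per group. An effect of a hairpin on other transcripts therefore cannot be told apart from an effect of SATB1. The time between infection and harvest and any selection of infected cells are not stated in the labels. They also do not say whether the replicates were separate cultures, and the p-values may therefore reflect technical spread alone.

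Cells enter mitosis when cyclin A or B with CDK1 becomes active, and they leave it when the anaphase-promoting complex (APC/C) marks cyclin B and securin for destruction. In between, kinetochores, protein assemblies on the centromere, bind spindle microtubules, and the spindle checkpoint holds the APC/C back until every chromosome is attached. Transcripts of most of these genes are low in G1 and peak in G2 and M. Their promoters are known for binding NF-Y at CCAAT boxes and the DREAM and MuvB-B-MYB-FOXM1 complexes at the cell cycle genes homology region (CHR). In bulk RNA, fewer cells in G2 and M and less RNA per such cell cannot be told apart.

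The level of SATB1 (ENSG00000182568, hg38, chromosome 3, 18345387 to 18445588, minus strand) was 101.8, 100.2 and 104.1 CPM in shSATB1 replicates 1 to 3, against 279.1, 258.5 and 259.3 CPM in shCtrl replicates 1 to 3. CPM are read counts scaled to TMM-adjusted library size (trimmed mean of M values). The knockdown left 38.4% of the control level (log2 fold change -1.38, SE 0.0611, edgeR adjusted p = 1.11e-08), while an exact two-sided permutation test of the CPM gave p = 0.1, the smallest that 3 against 3 libraries allows. Reads in genes numbered 26626539 to 28143385 per library in shSATB1 and 27737353 to 28913623 in shCtrl. The share of reads outside annotated exons (the no-exon share) was higher in every shSATB1 library, at 10.9% to 11.7% of reads, against 7.77% to 10.2% in shCtrl. Every one of 15 T cell markers exceeded 1 CPM in all 6 libraries, with summed levels of 4556 to 4776 CPM in shSATB1 and 4587 to 5017 CPM in shCtrl. Of 27 markers of other cell types, CD79A, COL1A1 and PECAM1 passed 1 CPM in all libraries, and the endothelial sum, with PECAM1, was 92.26 to 96.48 CPM in shSATB1 and 172.9 to 176.1 CPM in shCtrl.

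Promoter windows show the elements that many of these genes share and where examples differ. RefSeq windows (GRCh38.p14, from 250 bases before to 50 bases after the gene's start, read 5′ to 3′ on the gene's strand) were found for 39 of the 48 genes. Some genes have several windows, and a gene counts as holding a motif if any of its windows does. The letters TTTGAA, on either strand (a match on the other strand reads TTCAAA in the window), the core of the CHR, occurred in 28 of these 39 genes (71.8%), against 18.2% of all 27305 genes with a window. CCAAT, on either strand (a match on the other strand reads ATTGG in the window), occurred in 33 genes (84.6%), against 39.7% of all genes with a window, and both motifs in 24 (61.5%), against 7.26%. The windows of 6 genes are printed with these motifs in capitals, chosen to show both motifs or a single motif in front of genes with different changes. Only the exact letters were searched, so a window without TTTGAA may still hold a variant of the CHR. CCNB2 and CDC20 hold both motifs in front of genes that fell. SPC24 and CCNA2 hold CCAAT without TTTGAA in front of genes that fell. KIF20A holds CCAAT without TTTGAA in front of a gene that rose, and MKI67 holds both in front of a gene that did not pass. Their positions are chr15:59104896-59105195 (plus strand), chr1:43358731-43359030 (plus strand), chr19:11155733-11156032 (minus strand), chr4:121823834-121824133 (minus strand), chr5:138178862-138179161 (plus strand) and chr10:128126374-128126673 (minus strand).
CCNB2: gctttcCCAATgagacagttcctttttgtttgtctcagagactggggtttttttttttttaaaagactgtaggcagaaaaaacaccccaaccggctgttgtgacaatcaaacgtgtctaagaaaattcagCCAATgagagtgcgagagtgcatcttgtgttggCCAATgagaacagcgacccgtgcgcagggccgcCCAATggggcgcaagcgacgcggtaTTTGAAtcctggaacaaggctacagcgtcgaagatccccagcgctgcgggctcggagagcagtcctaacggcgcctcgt
CDC20: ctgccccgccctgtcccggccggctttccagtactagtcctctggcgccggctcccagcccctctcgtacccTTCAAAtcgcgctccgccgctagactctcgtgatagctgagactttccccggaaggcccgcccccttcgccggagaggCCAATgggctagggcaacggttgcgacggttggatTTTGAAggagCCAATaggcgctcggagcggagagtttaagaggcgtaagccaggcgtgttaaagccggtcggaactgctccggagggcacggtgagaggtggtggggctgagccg
SPC24: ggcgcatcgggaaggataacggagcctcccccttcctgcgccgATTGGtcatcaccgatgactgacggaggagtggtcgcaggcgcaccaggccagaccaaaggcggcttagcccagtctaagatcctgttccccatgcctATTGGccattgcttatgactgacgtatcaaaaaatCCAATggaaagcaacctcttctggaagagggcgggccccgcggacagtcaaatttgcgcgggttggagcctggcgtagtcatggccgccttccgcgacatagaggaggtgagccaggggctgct
CCNA2: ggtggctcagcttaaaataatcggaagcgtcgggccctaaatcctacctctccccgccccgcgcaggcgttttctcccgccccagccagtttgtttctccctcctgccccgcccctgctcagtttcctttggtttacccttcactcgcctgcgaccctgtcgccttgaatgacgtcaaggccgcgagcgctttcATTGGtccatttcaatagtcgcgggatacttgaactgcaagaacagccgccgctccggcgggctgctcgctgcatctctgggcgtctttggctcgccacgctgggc
KIF20A: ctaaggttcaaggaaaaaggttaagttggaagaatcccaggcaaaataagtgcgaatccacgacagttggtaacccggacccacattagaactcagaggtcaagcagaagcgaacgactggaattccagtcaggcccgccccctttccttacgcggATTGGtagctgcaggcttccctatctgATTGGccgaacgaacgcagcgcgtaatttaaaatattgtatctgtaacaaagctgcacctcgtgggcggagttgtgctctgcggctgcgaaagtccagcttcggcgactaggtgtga
MKI67: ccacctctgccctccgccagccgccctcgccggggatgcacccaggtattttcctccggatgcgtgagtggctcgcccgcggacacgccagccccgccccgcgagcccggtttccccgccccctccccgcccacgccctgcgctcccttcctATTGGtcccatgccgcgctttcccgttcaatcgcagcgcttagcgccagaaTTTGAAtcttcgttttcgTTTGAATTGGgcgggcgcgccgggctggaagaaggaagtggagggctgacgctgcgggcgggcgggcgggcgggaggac

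In the CCNB2 window TTTGAA begins at position -29 from the start and CCAAT at -244, -120, -87 and -54. In MKI67 the TTTGAA at -29 overlaps an ATTGG that begins at -24, and another TTTGAA begins at -47. TTTGAA began within 50 bases of a start in 24 of the 39 genes. Counts were close between genes that fell and the others: TTTGAA was in the windows of 13 of 20 genes that fell (65%) and 15 of 19 others (78.9%), and CCAAT in 17 of 20 (85%) and 16 of 19 (84.2%). For comparison, TTTGAA was in the windows of 3 of 44 DNA replication genes (6.82%). A match is a description of these letters and no evidence of binding.

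Many of the mitosis genes were lower in shSATB1, by small amounts, and few were higher. All 48 genes passed the filter on low counts. Of these, 25 fell and 2 rose at an adjusted p under 0.05 (edgeR quasi-likelihood test over 17520 genes), and 21 passed in neither direction. The background is high: 16.6% of all genes tested fell and 14.3% rose, and among the 8445 genes at 20 CPM or more, where all members but PRC1 lie, 27.8% fell and 18.2% rose. The median log2 fold change of the members was -0.20, against 0.01 over all genes tested and -0.04 over the well expressed genes, and 39 of 48 lay below 0. All 3 shSATB1 libraries lay below all 3 shCtrl libraries for 30 members, against 23.4% of all genes and 35.3% of the well expressed genes, and above them for 3 members, against 21.7% and 24.1%. The genes that fell kept a median of 80.6% of the control level, from 64.7% to 88.3%, and SPC24 was the called member whose change exceeded 1.5-fold.

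**Figure D1:**
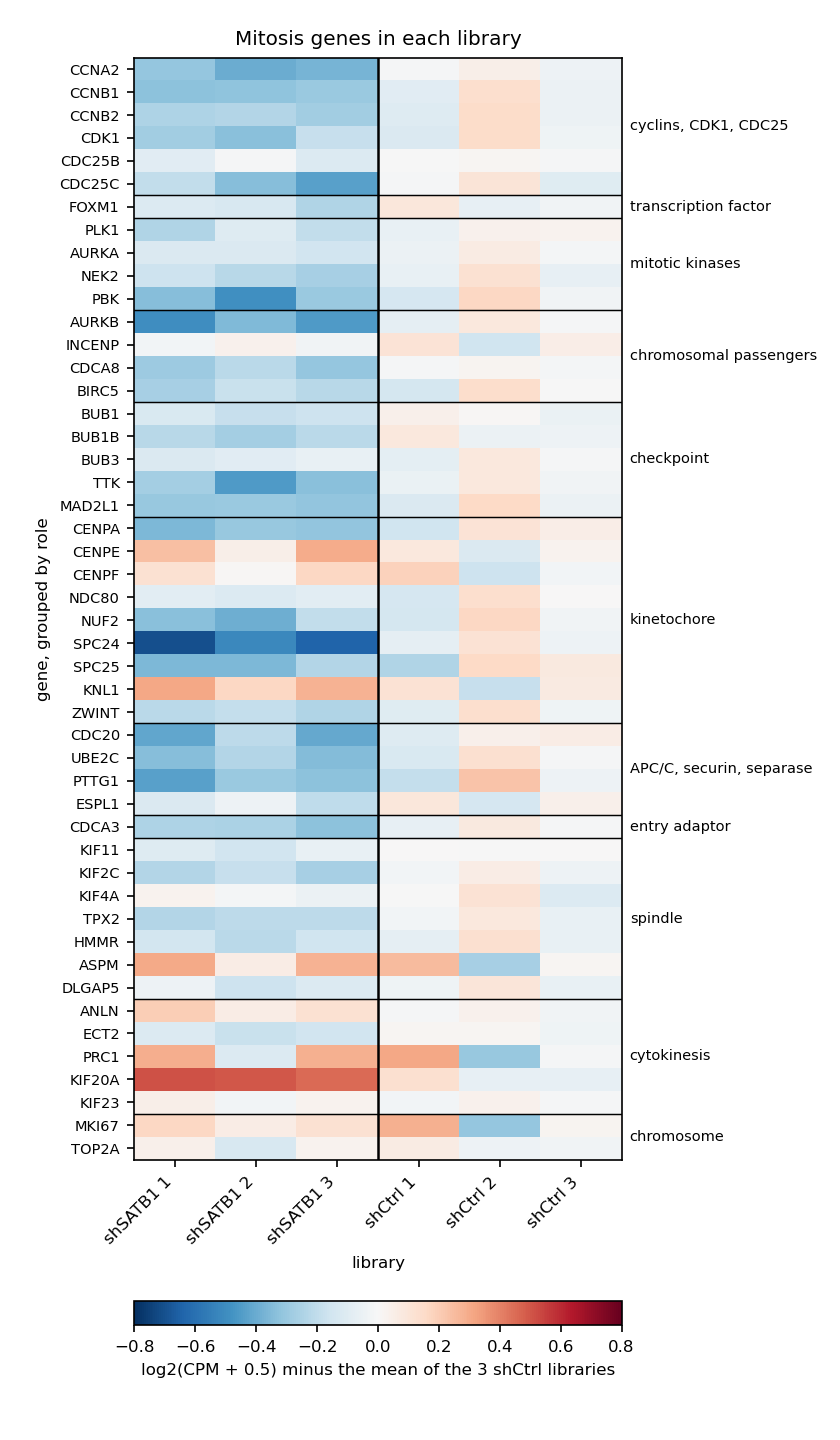
Each row is a gene, grouped by role, and each column a library; colour is the log2 ratio of the library's CPM to the mean of the 3 shCtrl libraries. The median of the 48 genes was -0.18, -0.18 and -0.20 in shSATB1 replicates 1 to 3 and -0.03, 0.07 and -0.03 in shCtrl replicates 1 to 3, and KIF20A stands out as high in all shSATB1 libraries.

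The heat map of the members by library shows a like shift in every shSATB1 library, with 37, 40 and 38 of the 48 genes below the shCtrl mean in replicates 1 to 3. Among the controls the counts were 33, 13 and 36, so shCtrl replicate 2 carried most of the high control values. This library also had the lowest no-exon share. Summed over the members, the level was 8057, 7800 and 8015 CPM in shSATB1 and 8687, 8517 and 8437 CPM in shCtrl, which did not overlap. That separation depends on the TMM scaling. As a plain share of reads in genes, the members held 0.831%, 0.8% and 0.826% in shSATB1. In shCtrl they held 0.851%, 0.81% and 0.824%, and these shares overlapped. Per kb of exon, TOP2A ranked highest in both groups, at 124 CPM per kb in shSATB1 and 125 in shCtrl, followed in shCtrl by CCNB1 (91.5 in shSATB1 and 114 in shCtrl), CDC20 (88.1 and 112) and TPX2 (94.9 and 110). The lowest were PRC1, whose count is uncertain, at 0.374 CPM per kb in shSATB1 and 0.329 in shCtrl, and CDC25C at 6.59 in shSATB1 and 8.29 in shCtrl.

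Of the cyclins, CDK1 and the CDC25 phosphatases 5 of 6 fell, against 27.8% of well expressed genes, with a median log2 fold change of -0.30. All 5 are shorter than the members' median exonic length of 3.95 kb, and 48% of well expressed genes shorter than that fell. With the no-exon share as covariate CCNA2 alone of the 6 fell, and CCNB1 was at -0.12 (adjusted p = 0.333). CCNA2, the cyclin A of S phase and mitotic entry, had 136.1, 127.6 and 130.1 CPM in shSATB1, against 167.7, 174.3 and 163.7 CPM in shCtrl, with no overlap. It averaged 131.3 ± 4.39 CPM in shSATB1 and 168.6 ± 5.34 CPM in shCtrl (SD, n = 3 each; log2 fold change -0.36, SE 0.0598, adjusted p = 0.000584). CCNB1, cyclin B1, the main partner of CDK1 in mitosis, had 232.0, 233.0 and 237.1 CPM in shSATB1, against 273.9, 319.7 and 282.6 CPM in shCtrl. All its shSATB1 libraries lay within a narrow band below the controls, of which replicate 2 was highest (234.1 ± 2.71 CPM in shSATB1 and 292.1 ± 24.4 CPM in shCtrl, log2 fold change -0.32, SE 0.0674, adjusted p = 0.00287). CDC25C, a phosphatase that activates CDK1, had 24.0, 21.7 and 20.3 CPM in shSATB1, against 27.5, 29.7 and 25.8 CPM in shCtrl (log2 fold change -0.33, SE 0.087, adjusted p = 0.0104). CDK1, the kinase itself, averaged 194.3 ± 10.1 CPM in shSATB1 and 234.4 ± 22.0 CPM in shCtrl (log2 fold change -0.27, adjusted p = 0.0127), and CCNB2, cyclin B2, 124.1 ± 1.95 and 148.3 ± 13.6 CPM (-0.26, adjusted p = 0.0129). CDC25B, the phosphatase that acts early at the centrosome, did not pass, at 174.3 to 187.2 CPM in shSATB1 and 186.5 to 190.4 CPM in shCtrl (log2 fold change -0.07, adjusted p = 0.409). Single libraries decided some of these calls. CCNB2 was lost without shSATB1 replicate 1 (adjusted p = 0.0632) or 3 (0.0755), CDK1 without shSATB1 replicate 1 (0.0693) or 2 (0.0782), and CDC25C without shSATB1 replicate 3 (0.0756). Over all alternatives the adjusted p ran from 0.000493 to 0.892 for CCNB2, from 0.000266 to 0.653 for CDK1 and from 0.00167 to 0.355 for CDC25C.

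FOXM1, the transcription factor that drives many G2/M genes, had 114.6, 112.8 and 104.5 CPM in shSATB1, against 131.4, 118.1 and 121.1 CPM in shCtrl. The groups did not overlap, but the change did not pass (log2 fold change -0.16, SE 0.0655, adjusted p = 0.0814). Of the mitotic kinases, 3 of 4 fell, against 27.8% of well expressed genes. None of these 3 passed with the no-exon share as covariate (adjusted p = 0.667 for PLK1, 0.764 for NEK2 and 0.334 for PBK). PLK1, which acts from mitotic entry to cytokinesis, had the highest CPM of them (AURKA is highest per kb of exon), 112.4, 123.3 and 115.8 CPM in shSATB1, against 127.1, 135.7 and 135.5 CPM in shCtrl (log2 fold change -0.18, SE 0.0625, adjusted p = 0.0417). PBK, a mitotic serine/threonine kinase also called TOPK, changed more, with 61.6, 55.4 and 63.5 CPM in shSATB1, against 70.9, 87.6 and 76.5 CPM in shCtrl (log2 fold change -0.38, SE 0.0822, adjusted p = 0.00333). NEK2, a kinase of centrosome separation, stood at 58.4 to 62.6 CPM in shSATB1 and 67.2 to 76.4 CPM in shCtrl (log2 fold change -0.22, adjusted p = 0.0254). AURKA, the spindle pole kinase, did not pass, although its groups did not overlap at 99.4 to 102.3 CPM in shSATB1 and 107.0 to 115.8 CPM in shCtrl (log2 fold change -0.13, adjusted p = 0.119). PLK1 did not pass without shCtrl replicate 3 (adjusted p = 0.16), shSATB1 replicate 1 (0.22) or shSATB1 replicate 3 (0.158), with a range of 0.0113 to 1 over all alternatives. NEK2 was lost when any library other than shCtrl replicate 1 was left out, at adjusted p from 0.0503 to 0.13, with a range of 0.00573 to 0.9 over all alternatives.

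The chromosomal passenger complex corrects faulty kinetochore attachments, and its kinase fell most. AURKB, Aurora B, had 75.4, 83.4 and 77.9 CPM in shSATB1, against 101.4, 113.1 and 106.3 CPM in shCtrl. The groups were far apart relative to their spread (78.91 ± 4.10 CPM in shSATB1 and 106.9 ± 5.90 CPM in shCtrl, log2 fold change -0.44, SE 0.0663, adjusted p = 0.000301). CDCA8, the subunit borealin, also fell (log2 fold change -0.27, adjusted p = 0.00348), as did BIRC5, survivin (-0.23, adjusted p = 0.0295). INCENP, the scaffold that binds the kinase, had the highest level of the 4 and did not pass, at 260.3, 271.0 and 259.3 CPM in shSATB1, against 284.8, 236.7 and 273.9 CPM in shCtrl (log2 fold change -0.01, adjusted p = 0.942). Its control libraries spanned all the shSATB1 values. BIRC5 was lost when any library other than shCtrl replicate 1 was left out, at adjusted p from 0.0554 to 0.144, with a range of 0.00063 to 0.873 over all alternatives, and its direction turned with the no-exon share as covariate (log2 fold change 0.04).

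In the spindle checkpoint 3 of 5 genes fell, against 27.8% of well expressed genes. TTK, the kinase MPS1 that starts the checkpoint signal, had 122.3, 108.2 and 117.4 CPM in shSATB1, against 142.4, 157.2 and 144.9 CPM in shCtrl (log2 fold change -0.35, SE 0.0672, adjusted p = 0.00147). MAD2L1, which holds CDC20 in the inhibitory complex, had 115.3, 115.7 and 114.2 CPM in shSATB1, against 131.6, 159.5 and 137.8 CPM in shCtrl (log2 fold change -0.31, SE 0.0725, adjusted p = 0.00509). For both genes every shSATB1 library lay below every control. BUB1B, the protein BUBR1 of the same complex, stood at 157.4 to 163.5 CPM in shSATB1 and 183.9 to 201.5 CPM in shCtrl (log2 fold change -0.24, adjusted p = 0.00961, and 0.0515 without shSATB1 replicate 1, with a range of 0.000615 to 0.839 over all alternatives). BUB1, the kinase that recruits it, had 274.0 to 285.4 CPM in shSATB1 and 299.7 to 319.8 CPM in shCtrl without passing (log2 fold change -0.16, adjusted p = 0.057). BUB3, their shared partner, had the highest CPM of the 5 (BUB1 is above it per kb of exon), with 296.9, 302.0 and 308.4 CPM in shSATB1, against 304.8, 342.0 and 320.3 CPM in shCtrl (log2 fold change -0.09, adjusted p = 0.289).

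The kinetochore genes were split, with 5 of 9 that fell, 1 that rose and 3 that did not pass. Of well expressed genes, 27.8% fell and 18.2% rose. The 5 that fell have exonic lengths of 1.84 to 3.36 kb, and 48% of well expressed genes shorter than 3.95 kb fell. The gene that rose, KNL1, has 10.2 kb. Of the 5 falls, that of SPC24 alone was called with the no-exon share as covariate. SPC24 had the largest fall of the 48 genes. It encodes a subunit of the Ndc80 complex, which binds microtubules through NDC80 and NUF2 and anchors to the kinetochore through SPC24 and SPC25. SPC24 had 39.2, 44.7 and 41.0 CPM in shSATB1, against 61.1, 69.5 and 62.3 CPM in shCtrl. All shSATB1 libraries lay below all controls (41.61 ± 2.80 CPM in shSATB1 and 64.3 ± 4.58 CPM in shCtrl, log2 fold change -0.63, SE 0.0747, adjusted p = 5.13e-05). NUF2 had 77.3, 74.4 and 85.1 CPM in shSATB1, against 88.4, 109.6 and 95.7 CPM in shCtrl (log2 fold change -0.31, SE 0.0814, adjusted p = 0.0106). SPC25 fell as well, with overlapping groups of 25.7 to 28.0 CPM in shSATB1 and 27.9 to 37.0 CPM in shCtrl (log2 fold change -0.33, adjusted p = 0.0199), whereas NDC80 did not pass, at 69.4 to 70.4 CPM in shSATB1 and 68.0 to 82.1 CPM in shCtrl (log2 fold change -0.10, adjusted p = 0.334). Per kb of exon, SPC24 stood at 0.705, 0.816 and 0.738 times the NDC80 level in shSATB1, against 1.14, 1.07 and 1.06 times in shCtrl. The same ratio for SPC25 was 0.712, 0.725 and 0.778 in shSATB1, against 0.804, 0.882 and 0.914 in shCtrl, and for NUF2 1.18, 1.15 and 1.29 in shSATB1, against 1.39, 1.43 and 1.37 in shCtrl. In all 3 ratios the groups did not overlap, but the ratios were not tested. SPC24, SPC25 and NUF2 have shorter exonic lengths (2.84, 1.84 and 3.36 kb) than NDC80 (3.6 kb). In the fit with the no-exon share as covariate the log2 fold changes were -0.41 for SPC24, -0.03 for SPC25, -0.08 for NUF2 and 0.12 for NDC80. NUF2 was lost without shSATB1 replicate 1 (adjusted p = 0.061) or 2 (0.0731), with a range of 9.02e-05 to 0.696 over all alternatives. SPC25 was lost without shCtrl replicate 3 (0.093), shSATB1 replicate 1 (0.0904) or shSATB1 replicate 2 (0.0918), with a range of 5.74e-05 to 0.929.

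CENPA, the histone H3 variant that marks the centromere, had 40.3, 41.9 and 41.5 CPM in shSATB1, against 46.3, 55.8 and 53.7 CPM in shCtrl (log2 fold change -0.33, SE 0.0763, adjusted p = 0.00495). ZWINT, which links KNL1 to the RZZ complex of the outer kinetochore, fell by less (log2 fold change -0.22, adjusted p = 0.0249), and KNL1, the scaffold on which BUB1 and BUB3 assemble, was among the 2 genes that rose. KNL1 had 253.2, 229.2 and 247.1 CPM in shSATB1, against 221.0, 179.2 and 214.0 CPM in shCtrl, without overlap and with a wider spread among the controls (243.2 ± 12.4 CPM in shSATB1 and 204.7 ± 22.4 CPM in shCtrl, log2 fold change 0.25, SE 0.0785, adjusted p = 0.0277). It did not pass without shCtrl replicate 3 (adjusted p = 0.053), shSATB1 replicate 1 (0.113) or shSATB1 replicate 3 (0.0979). Correcting for gene length and GC brought its log2 fold change to 0.07 (adjusted p = 0.365), and a fit with the no-exon share as covariate to -0.06 (adjusted p = 0.695), with a range of 0.00136 to 0.755 over all alternatives. ZWINT was lost when shCtrl replicate 3 or any shSATB1 library was left out, at adjusted p from 0.0666 to 0.12, and also with the length and GC correction, with a range of 0.00165 to 0.989 over all alternatives. CENPF, a large protein of the outer kinetochore with the highest CPM of the 9 (ZWINT is highest per kb of exon), had 506.7, 469.4 and 521.8 CPM in shSATB1, against 529.3, 416.1 and 459.4 CPM in shCtrl, and the groups overlapped (log2 fold change 0.09, adjusted p = 0.425). CENPE, a kinetochore kinesin, had 110.6 to 131.4 CPM in shSATB1 and 98.9 to 113.4 CPM in shCtrl (log2 fold change 0.20, adjusted p = 0.0656).

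**Figure D2:**
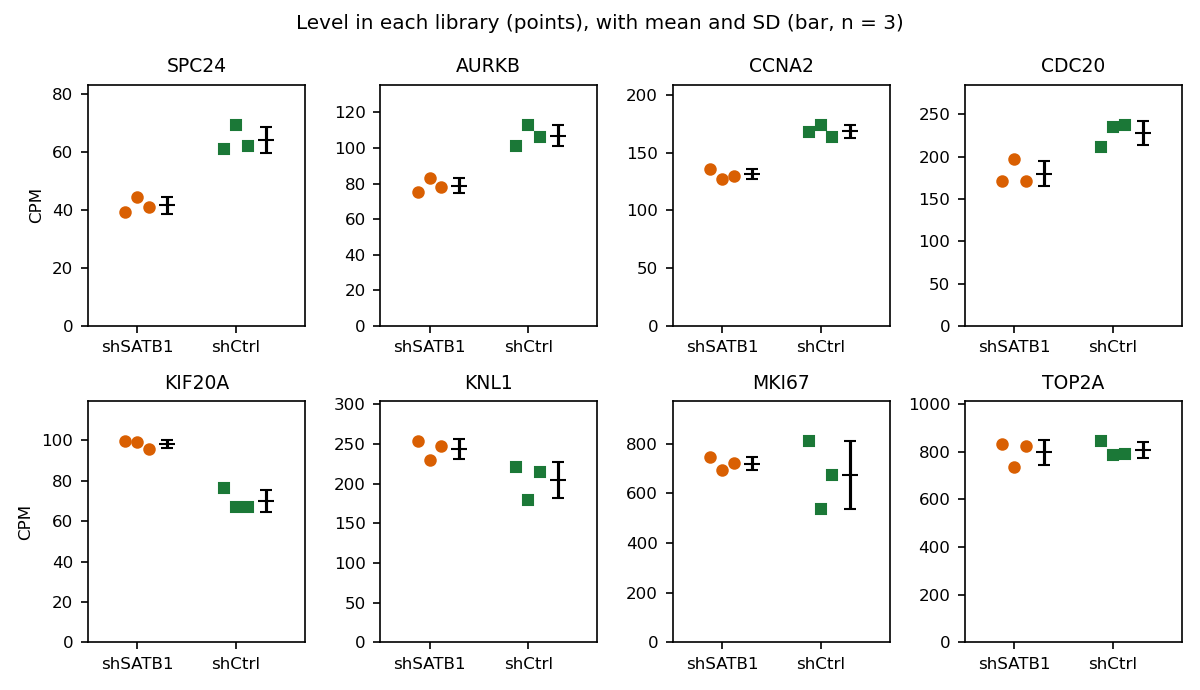
Points are CPM of single libraries for 8 genes, shSATB1 left and shCtrl right of each panel, with the mean and SD of 3 libraries as a bar. SPC24, AURKB, CCNA2 and CDC20 lie lower and KIF20A and KNL1 higher in all shSATB1 libraries, while MKI67 and TOP2A overlap between the groups.

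The genes that end mitosis fell in 3 of 4 cases, against 27.8% of well expressed genes, with a median log2 fold change of -0.33. The 3 that fell have exonic lengths of 1.29 to 2.04 kb, and 48% of well expressed genes shorter than 3.95 kb fell. CDC20, the activator that turns the APC/C on at anaphase, had 170.9, 196.8 and 171.3 CPM in shSATB1, against 211.7, 234.6 and 237.6 CPM in shCtrl (179.6 ± 14.8 CPM in shSATB1 and 228.0 ± 14.2 CPM in shCtrl, log2 fold change -0.34, SE 0.0725, adjusted p = 0.00289). UBE2C, the ubiquitin-conjugating enzyme of the APC/C, had 82.7, 88.9 and 82.1 CPM in shSATB1, against 96.2, 114.5 and 104.2 CPM in shCtrl (log2 fold change -0.31, SE 0.0719, adjusted p = 0.00501). In both genes all shSATB1 libraries were below all controls. PTTG1, securin, the inhibitor of separase, had 69.6, 76.6 and 74.8 CPM in shSATB1, against 82.4, 110.3 and 91.6 CPM in shCtrl (log2 fold change -0.36, SE 0.0908, adjusted p = 0.00801, and 0.056 without shSATB1 replicate 1, with a range of 6.79e-06 to 0.857 over all alternatives). None of the 3 passed with the no-exon share as covariate: CDC20 was at -0.17 (adjusted p = 0.194) and UBE2C at -0.06 (0.718). The direction of PTTG1 turned in that fit, to a log2 fold change of 0.04. ESPL1, separase, which cleaves cohesin, overlapped between groups at 129.3 to 144.8 CPM in shSATB1 and 135.9 to 158.8 CPM in shCtrl (log2 fold change -0.12, adjusted p = 0.215). CDCA3, known as trigger of mitotic entry, a ubiquitin ligase adaptor that helps remove WEE1, had 47.5, 47.3 and 44.8 CPM in shSATB1, against 53.8, 59.6 and 55.9 CPM in shCtrl. Its groups did not overlap (log2 fold change -0.28, SE 0.0667, adjusted p = 0.00637), and the call was lost without shSATB1 replicate 3 (adjusted p = 0.0509, with a range of 0.000845 to 0.583 over all alternatives).

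Of the spindle genes 2 of 7 fell, a share near the 27.8% of well expressed genes, and the median log2 fold change was -0.11. TPX2, which releases microtubule growth near chromosomes and activates Aurora A, had 338.8, 343.8 and 344.1 CPM in shSATB1, against 391.4, 421.1 and 382.4 CPM in shCtrl. Its shSATB1 libraries agreed closely, below all controls (342.2 ± 2.99 CPM in shSATB1 and 398.3 ± 20.2 CPM in shCtrl, log2 fold change -0.22, SE 0.0609, adjusted p = 0.0145). KIF2C, the microtubule-depolymerising kinesin MCAK, had 136.9 to 144.9 CPM in shSATB1 and 160.6 to 172.0 CPM in shCtrl (log2 fold change -0.23, adjusted p = 0.00987). KIF11, the motor that pushes spindle poles apart, HMMR, a spindle assembly protein, and DLGAP5, which stabilises kinetochore fibres, had log2 fold changes of -0.11, -0.18 and -0.11 without passing (adjusted p = 0.18, 0.0647 and 0.234). The chromokinesin KIF4A was at -0.02 (adjusted p = 0.878). ASPM, a spindle pole protein, had 278.9 to 330.4 CPM in shSATB1 and 222.5 to 319.3 CPM in shCtrl (log2 fold change 0.20, adjusted p = 0.172). KIF2C was lost without shSATB1 replicate 1 (adjusted p = 0.0632) or 3 (0.0709), and TPX2 when any shSATB1 library was left out (0.0506 to 0.0891). Over all alternatives the adjusted p ran from 0.00355 to 0.882 for KIF2C and from 0.005 to 0.941 for TPX2.

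KIF20A had the largest rise of the 48 genes. It encodes the kinesin MKLP2, which carries the chromosomal passenger complex to the central spindle for cytokinesis. KIF20A (chromosome 5, 138178719 to 138187715, plus strand, hg38) had 99.6, 99.0 and 95.8 CPM in shSATB1, against 76.5, 66.8 and 66.9 CPM in shCtrl. All shSATB1 libraries lay above all controls (98.14 ± 2.01 CPM in shSATB1 and 70.06 ± 5.54 CPM in shCtrl, log2 fold change 0.49, SE 0.0677, adjusted p = 0.000163). Its call held in each of the 6 fits that left out a library, against a null of a 1.2-fold change, with the length and GC correction (log2 fold change 0.52, adjusted p = 4.82e-05) and with the no-exon share as covariate (0.35, adjusted p = 0.00782), and its adjusted p ranged from 5.3e-09 to 0.0124 over all alternatives. Both neighbours lie on the opposite strand and overlap its ends. BRD8 (138139766 to 138178986), a subunit of a chromatin-modifying complex, shares 132 exonic bases with KIF20A and did not pass, at 198.3, 199.3 and 199.7 CPM in shSATB1, against 178.6, 179.6 and 180.0 CPM in shCtrl (log2 fold change 0.15, adjusted p = 0.0562). CDC23 (138187648 to 138213343), an APC/C subunit, shares 68 exonic bases and fell, at 76.7, 71.0 and 71.9 CPM in shSATB1, against 90.4, 100.7 and 93.2 CPM in shCtrl (log2 fold change -0.37, adjusted p = 0.000841). The strand setting of the counting is unknown here, and the part of reads from BRD8 in the KIF20A count was not tested.

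None of the other 4 cytokinesis genes passed. ECT2, which activates RHOA at the cleavage site and has the highest level of them, had 135.4, 128.8 and 131.1 CPM in shSATB1, against 147.9, 147.7 and 142.7 CPM in shCtrl, without overlap (log2 fold change -0.15, adjusted p = 0.0673). ANLN, anillin of the contractile ring, went the other way, at 117.9 to 130.2 CPM in shSATB1 and 111.1 to 116.1 CPM in shCtrl (log2 fold change 0.13, adjusted p = 0.129). KIF23, the kinesin of the centralspindlin complex, was at 0.02 (adjusted p = 0.837). PRC1, which bundles the central spindle, is uncertain: 57.6% of its exonic bases are shared with AC068831.7 on the same strand, and it was left with 37 to 66 reads per library (2.29, 1.62 and 2.28 CPM in shSATB1, against 2.33, 1.35 and 1.77 CPM in shCtrl, adjusted p = 0.602).

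The markers most used for proliferating cells did not pass. MKI67, the Ki-67 protein that coats mitotic chromosomes, had 744.4, 692.2 and 723.3 CPM in shSATB1, against 809.8, 535.5 and 674.8 CPM in shCtrl. Its control libraries held both the highest and the lowest value (720 ± 26.2 CPM in shSATB1 and 673.4 ± 137 CPM in shCtrl, log2 fold change 0.10, SE 0.11, adjusted p = 0.543). With the covariate its log2 fold change was -0.41 (adjusted p = 1.91e-05), with a range of 1.91e-05 to 1 over all alternatives. TOP2A, the topoisomerase that untangles sister chromatids, had 831.8, 738.2 and 823.3 CPM in shSATB1, against 844.5, 785.8 and 792.3 CPM in shCtrl, and the groups overlapped (log2 fold change -0.02, SE 0.0665, adjusted p = 0.867).

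**Figure D3:**
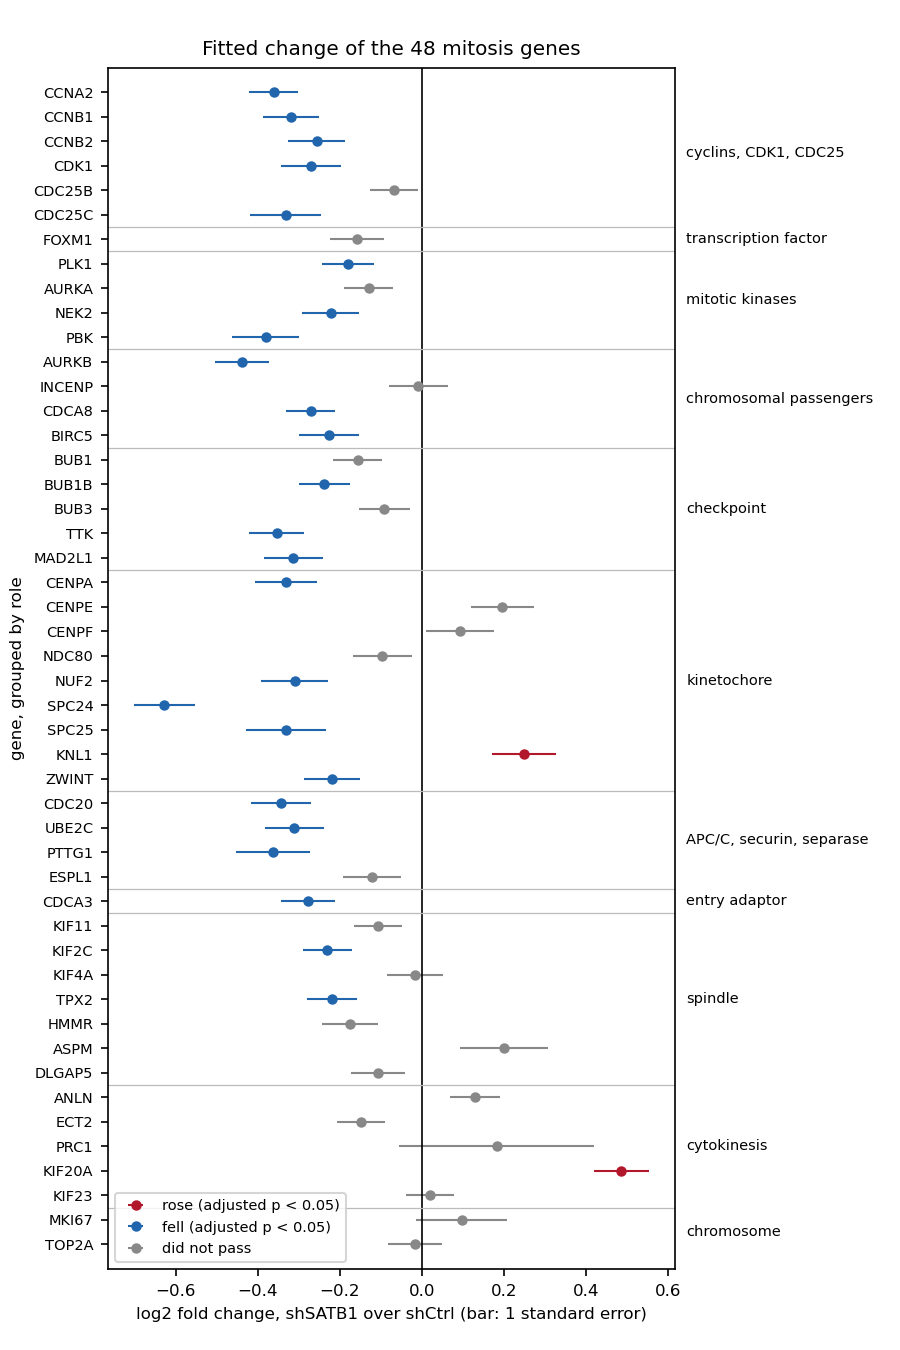
The fitted log2 fold change of each of the 48 genes (x axis, shSATB1 over shCtrl) with 1 standard error, coloured by whether it rose, fell or did not pass at an adjusted p under 0.05. Estimates lie between -0.63 (SPC24) and 0.49 (KIF20A).

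The plot of fitted changes by gene separates the members by more than their role, and exonic length moved with the change. Over the 48 genes the log2 fold change and the log of exonic length had Pearson's r = 0.67 and Spearman's rho = 0.74, a description across genes, which are not independent replicates and share the libraries. Among the 24 shorter members 20 fell and 0 rose, with a median log2 fold change of -0.29, and among the 24 longer members 5 fell and 2 rose, with a median of -0.04. The 5 members over 9000 bases, CENPE, KNL1, ASPM, CENPF and MKI67, all had positive estimates, and without them r was 0.52 over 43 genes. Well expressed genes in general showed such a relation (r = 0.41): of those shorter than the members' median length of 3.95 kb 48% fell and 6.18% rose, and of the longer ones 19.8% fell and 22.9% rose. With each library corrected for length and GC, r was 0.39 over the members, 31 of 48 fell and 1 rose (background 19.4% falling and 14% rising), and the median was -0.18. That fit called 24 of the 25 falls again, ZWINT being the exception, and added BUB1, BUB3, ESPL1, KIF11, HMMR, DLGAP5 and ECT2. The relation to length was not stable: with the no-exon share as covariate, r was -0.16 over the members. In that covariate fit 3 of the 24 shorter members fell (median -0.07) and 7 of the 24 longer ones (median -0.15). Of the well expressed genes, 10.1% of the shorter and 13.2% of the longer fell there.

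**Figure D4:**
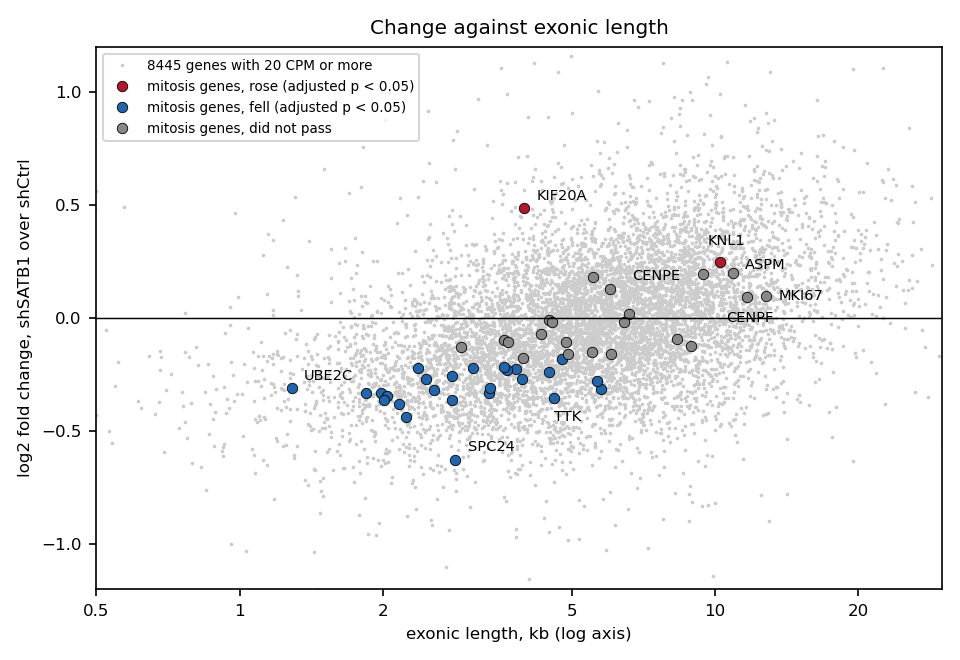
Fitted log2 fold change (y axis, shSATB1 over shCtrl) against exonic length in kb (log x axis), grey dots for the 8445 genes at 20 CPM or more and larger circles for the 48 genes. Genes that fell are mostly short, and the members over 9 kb lie above 0.

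The no-exon share also moved with the groups, and its part cannot be told apart from that of the knockdown. With this share as a covariate, 10 members fell and 1 rose (background 7.2% falling and 4.9% rising), and the median log2 fold change was -0.11. CCNA2, AURKB, BUB1B, TTK and SPC24 fell in both fits, at -0.33 for CCNA2 (adjusted p = 0.00419), -0.26 for AURKB (0.0375) and -0.41 for SPC24 (0.00345). The covariate fit added FOXM1, CENPF, ESPL1, ASPM and MKI67. Over all alternatives the adjusted p ran from 2.12e-06 to 0.135 for CCNA2, from 2.46e-08 to 0.0375 for AURKB and from 3.65e-14 to 0.00345 for SPC24. Of the 25 falls, 11 were called in all 6 fits that left out a library: CCNA2, CCNB1, PBK, AURKB, CDCA8, TTK, MAD2L1, CENPA, SPC24, CDC20 and UBE2C. Of these 11, CCNB1, PBK, CDCA8, MAD2L1, CENPA, CDC20 and UBE2C did not pass with the covariate (adjusted p from 0.0864 to 0.718). Falls numbered 13 without shSATB1 replicate 1 (background 10.1%) and 16 without shSATB1 replicate 3 (10.3%). Rises numbered 6 without shCtrl replicate 1 (background 17.9%), which added CENPE, CENPF, ASPM and MKI67. KIF20A alone rose without shCtrl replicate 3, shSATB1 replicate 1 or shSATB1 replicate 3 (9.21%, 9.29% and 9.21%). Against a null of a 1.2-fold change, AURKB and SPC24 fell (background 3.98%) and KIF20A rose (4.33%).

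Other genes of the same processes, taken from lists of known members, were also mostly lower where they changed. Of 153 such genes tested in 8 lists, 57 fell (37.3%) and 9 rose (5.88%), with a median log2 fold change of -0.13. Of the well expressed genes, 27.8% fell and 18.2% rose. The share that fell was 42.9% at the centromere and kinetochore, 57.1% in mitotic entry and exit and 55.6% in cytokinesis and abscission. Falls in these lists numbered 4, 4 and 3, in that order, with the no-exon share as covariate (background 7.2%). At the centromere and kinetochore, 15 of 35 fell and 1 rose; CENPQ and CENPW, of the inner kinetochore network, had log2 fold changes of -0.66 and -0.64, while SGO2, a protector of centromeric cohesin, rose (0.24). Of 18 APC/C subunits and regulators 6 fell (33.3%, against 27.8% of well expressed genes) and 0 rose. The largest fall was that of UBE2S, which extends ubiquitin chains on APC/C substrates (-0.47). With the no-exon share as covariate 1 of the 18 fell. Of 26 other spindle and kinesin genes 7 fell, a share near the 27.8% of well expressed genes, and 0 rose; STMN1, stathmin, which destabilises microtubules, had the largest change among those named (-0.59). Of 14 genes of mitotic entry and exit 8 fell and 0 rose, among them CDKN3, a phosphatase that acts on CDK1 and CDK2, at 29.4, 29.5 and 31.9 CPM in shSATB1, against 44.9, 59.2 and 53.9 CPM in shCtrl (-0.80, adjusted p = 4.09e-05). All its shSATB1 libraries lay well below the controls, and this was a larger fall than that of any of the 48 genes. Of 9 cytokinesis and abscission genes 5 fell and 3 rose. RACGAP1, the partner of KIF23 in centralspindlin, fell (-0.48), while ARHGEF2, an exchange factor for RHOA, SHCBP1, a midbody protein, and SPAST, the microtubule-severing protein spastin, rose (0.27, 0.29 and 0.30). Some of these calls were lost in other fits: SGO2 (adjusted p = 0.0769) and SPAST (0.0934) with the length and GC correction, and CENPQ (0.114), UBE2S (0.127) and SPAST (0.351) with the no-exon share as covariate.

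Of 19 centrosome genes 4 fell (21.1%, against 27.8% of well expressed genes) and 1 rose (5.26%, against 18.2%), with TUBG1, gamma-tubulin, at -0.56. Falls in this list numbered 8 with the length and GC correction (background 19.4%) and 5 with the no-exon share as covariate (7.2%). Of 9 tubulin genes, whose copies can share reads, 6 fell (66.7%, against 27.8% of well expressed genes) and TUBA4A rose (0.48). With the no-exon share as covariate 2 of the 9 fell. Among 23 regulators that bind G1/S and G2/M promoters 6 fell and 3 rose, near the background of well expressed genes. MYBL2, the B-MYB factor of G2/M promoters, had 183.9, 194.5 and 176.7 CPM in shSATB1, against 257.3, 293.1 and 270.8 CPM in shCtrl (log2 fold change -0.57, adjusted p = 4.95e-05). E2F1, an activator of S phase genes, also fell (-0.49), whereas RB1 and RBL2, the retinoblastoma protein and its relative p130, and NFYA, a CCAAT-binding subunit, rose (0.51, 0.40 and 0.23). With the no-exon share as covariate RBL2 was at 0.10 (adjusted p = 0.55) and NFYA at 0.19 (adjusted p = 0.108), and neither passed. RB1 had 661.8, 608.1 and 684.4 CPM in shSATB1, against 464.1, 450.1 and 455.6 CPM in shCtrl, with a wide gap between the groups. Of the 51 DNA replication genes 40 fell, 0 rose, all 51 estimates lay below 0 and the median was -0.37, against 25 of 48 and -0.20 for the mitosis genes. No test of the difference between the lists was made. GINS1, of the replicative helicase, kept 44.9% of the control level, at 42.3, 45.6 and 46.8 CPM in shSATB1, against 91.2, 105.5 and 103.7 CPM in shCtrl (log2 fold change -1.16, adjusted p = 3.23e-07).

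**Figure D5:**
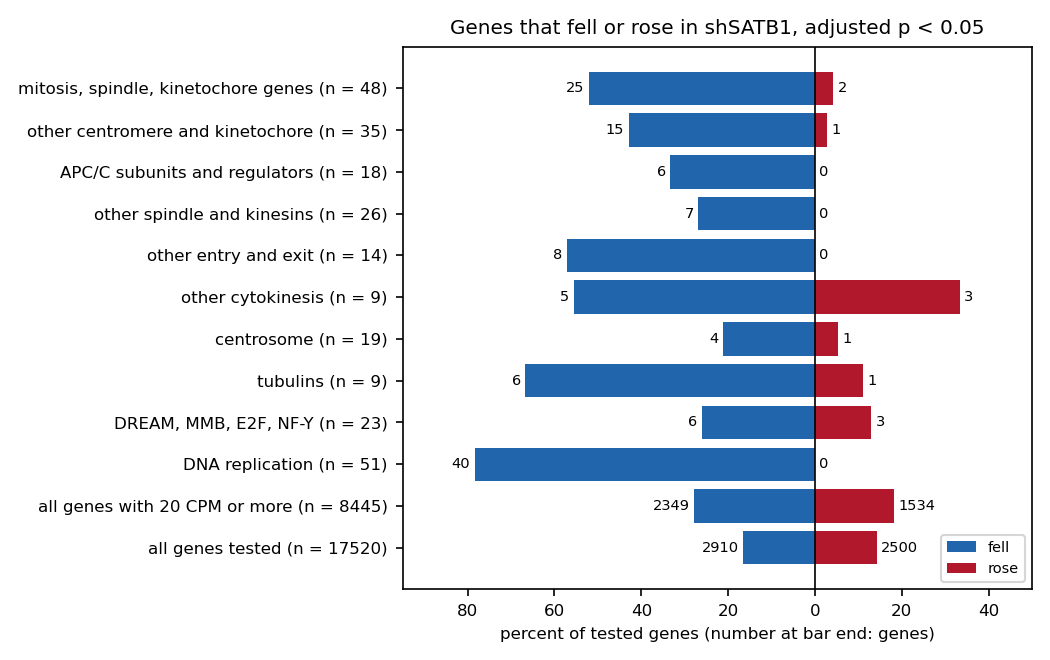
Percent of tested genes that fell (left, blue) or rose (right, red) in shSATB1 against shCtrl at an adjusted p under 0.05, for the 48 genes, 9 other lists and all genes; numbers at bar ends are genes. The 48 genes show 25 falls and 2 rises, between the DNA replication list (40 falls of 51) and the well expressed genes (2349 of 8445).

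Near-identical copies held few counted reads. Reads aligned to several places, 4.22% to 4.53% of reads per library, were reported apart from the genes. Few reads on a copy therefore do not show that its member lost none. UBE2CP2, a pseudogene of UBE2C, had 25 to 33 reads in shSATB1 and 18 to 27 reads in shCtrl, and other copies had at most 6. Besides PRC1, the largest shared exonic stretches were 15.9% of FOXM1 with ITFG2, 11.6% of PLK1 with AC008870.3, 10.2% of BUB1B with BUB1B-PAK6, 9.71% of CDCA3 with GNB3 and 9.08% of CCNA2 with EXOSC9, and these counts are uncertain to that extent.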

How the data were processed

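RNA-seq was run on total RNA of 3 shSATB1 and 3 shCtrl Jurkat libraries, grouped by their titles. The deposited values are raw read counts per Ensembl gene, made with Trim Galore, STAR and HTSeq on hg38, per the submitters' processing notes. Versions, annotation release and strand setting were not given in the sources used here. All 58735 identifiers were found in GENCODE 29, which gave symbols, exonic lengths (transcripts merged) and coordinates. The 5 lines that name no gene were left out; reads outside annotated exons (the no-exon share) were 7.77% to 11.7% of all reads and ambiguous reads 8.99% to 10.1%. At these depths 3 reads correspond to 0.104 to 0.113 CPM, which covers counting error only.

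Counts were tested with edgeR 4.0.16 in R 4.3.3 (TMM, filterByExpr with a minimum count of 10, quasi-likelihood F test of group), with Benjamini-Hochberg adjustment over 17520 genes and a threshold of 0.05. The coefficient of variation between libraries estimated by edgeR beyond counting error was 7.27%, and the scripts were tested on simulated data. SE is the log2 fold change divided by the square root of F. No 2 libraries of a group agreed within sampling noise (chi-square per degree of freedom 2.8 to 4.39 within shSATB1 and 5.25 to 20.5 within shCtrl). Alternatives were other tools (DESeq2 1.42.0, limma-voom with limma 3.58.1), other scaling (RLE, upper quartile), other filters (none, or 1 CPM in 3 libraries), a replicate block, each library left out in turn, a null of 1.2-fold, a length and GC correction (smooth per-library offsets, mgcv 1.9.3) and the no-exon share as covariate. Ranges of adjusted p over all alternatives include the null of 1.2-fold, which tests for a larger change. For CCNA2, PLK1, NEK2, BIRC5 and BUB1B that null gave the highest value. Backgrounds of genes at 20 CPM or more and the split by length were added after seeing the data.

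The members, lists and tests were chosen with earlier results of these data known. Values per library are given for called members without overlap (up to the 14 largest falls and the 8 largest rises), MKI67, TOP2A, the member of highest CPM in each role and, chosen after their values were seen, some others. Of other lists, up to 3 called genes with the largest change and at least 5 CPM were eligible.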

Additional observations from a re-analysis of the deposited data

How the results depend on the processing

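The 25 falls among the 48 genes were within 1.5 times of that count under most alternatives, and the 2 rises moved further in as many alternatives as not. Falls numbered 10 with the no-exon share as covariate and 2 against a null of 1.2-fold, and 13 to 26 when a library was left out; rises numbered 1 with the covariate, the length and GC correction or the null of 1.2-fold, 4 with the replicate block, and 1 to 6 when a library was left out. The median log2 fold change was -0.11 with the covariate and -0.22 to -0.16 without single libraries. Genes rising in the whole table numbered 858 with the covariate, 758 against a null of 1.2-fold and 1650 to 3218 without single libraries, and genes falling in the whole table numbered 1262, 698 and 1817 to 3562. DNA replication falls were 24 with the covariate and 19 against the null. The correlations of same-numbered libraries' deviations were 0.0798, 0.0712 and 0.0032, none over 0.1, against -0.0859 to 0.0157 between different numbers, and the numbers were not taken to pair libraries; the block called all 25 falls again and added BUB1, with CENPE and ASPM as rises. With the covariate the log2 fold change turned to 0.0352 for BIRC5, 0.0494 for BUB3, -0.0482 for CENPE, -0.23 for CENPF, 0.12 for NDC80, -0.0595 for KNL1, 0.0365 for PTTG1, 0.11 for KIF4A, -0.30 for ASPM, -0.63 for PRC1 and -0.41 for MKI67. With the length and GC correction it turned to 0.0226 for INCENP, -0.0638 for CENPF, 0.000569 for KIF4A, -0.00013 for ASPM, -0.0295 for KIF23 and -0.0275 for MKI67. With the 1 CPM filter it was 0.0104 for INCENP, 0.00339 for KIF4A and 0.00216 for TOP2A, and with upper quartile normalization 0.00308 for INCENP. When a library was left out it ran from -0.0798 to 0.0391 for INCENP, from -0.0744 to 0.0472 for KIF4A, from -0.000892 to 0.0481 for KIF23, from -0.0395 to 0.24 for MKI67 and from -0.0408 to 0.0437 for TOP2A. The causes were not tested.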
